A study of Drosophila melanogaster with 102 samples.

Results

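The 7 genes described here belong to purine metabolism in Drosophila melanogaster: Prat, Prat2, Gart, Pfas and Paics, which code for enzymes of de novo purine synthesis, and ry and Uro, which code for enzymes that make and break down urate. They were picked by name, as the rows of the deposited count tables whose FlyBase identifiers map to these symbols, and they are 7 of 14312 genes. All 7 identifiers were found and all 7 genes passed the filter on low counts in every comparison. The set was drawn up after Paics had been called higher in daughters of mothers on a high fat diet than in control daughters at day 10. That contrast is therefore given as values only, and so is Paics in every other comparison that uses those libraries.

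De novo synthesis builds a purine ring step by step on an activated ribose phosphate and ends in inosine monophosphate, from which AMP and GMP are made. Surplus purines are broken down to hypoxanthine and xanthine, which xanthine dehydrogenase turns into urate, and in flies urate oxidase of the Malpighian tubules, the excretory organ, degrades urate further to allantoin. Growing tissues with much nucleic acid synthesis, the ovary among them, need a large purine supply.

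The study asked how a mother's diet affects her progeny. Females of strain w1118, which carries a mutation of the eye-colour gene white, were kept for 7 days on a high fat diet (HFD), a high sugar diet (HSD) or a control diet (CD) and were mated with CD-fed males. All progeny, whatever the mother's diet, lived on CD at 25 °C, and HFD, HSD and CD progeny are named here by the diet of the mother. RNA of whole flies was sequenced from 15 libraries of mothers and from 87 of progeny, 44 of sons and 43 of daughters, at days 0, 10 and 50. Each of the 18 progeny groups has 3 to 6 libraries, most of them 5, and each group of mothers has 5. No source used here gives the age of the mothers or the number of flies in a library. Whether replicate libraries stem from independent cultures is not said either, and p-values measure the spread between libraries, which may be technical.

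Levels are CPM, read counts divided by effective library size, on one scale over all 102 libraries. The libraries hold 6332907 to 19469296 counts each, and the smallest count of any member in any library was 59, for Prat. The labels were set against transcripts of the reproductive organs. Among libraries labelled male, m1, m3, m4 and m8, all of day 0, held more than 10 CPM of the oocyte gene osk, and library f12, labelled as an HSD daughter of day 0, held more than 10 CPM of the accessory gland gene Acp36DE. Library m8, labelled as an HFD son of day 0, had 1285 CPM of osk and 0 CPM of Acp36DE. Its mean log2 CPM over 7 muscle genes was 5.36, against 11.71 to 12.69 in the other 4 of its group. Over 6 larval fat body genes it was -2.85, against 3.79 to 4.89. HFD daughters had 10.96 to 13.23 over the muscle genes at day 0 and 4.86 to 5.96 at day 50. Library m45, labelled as an HSD son of day 50, had a mean log2 CPM of 12.37 over the muscle genes, against 7.23 to 7.65 in the other 5 of its group. Over the larval fat body genes m45 had 3.79, against 0.09 to 1.87. HSD sons of day 0 had 10.15 to 12.65 over the muscle genes and 1.17 to 3.57 over the larval fat body genes. Library f22, labelled as an HFD daughter of day 10, had 5.44 over the larval fat body genes, against -1.23 to 3.54 in the other 4 of its group. Over the muscle genes f22 had 12.44, against 10.16 to 11.9991. Some results that rest on these libraries are given with and without them, and others with all libraries only. Reads of whole flies cannot tell fewer cells of a type from less RNA per cell.

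The entry of the pathway is catalysed by amidophosphoribosyltransferase, and the fly has 2 genes for it, Prat and Prat2. Prat, FBgn0004901, lies on the minus strand of chromosome 3R at 7909598 to 7911779, and Prat2, FBgn0041194, on the minus strand of 3L at 6911999 to 6914876 (build BDGP6.54). At days 10 and 50 Prat was lower and Prat2 higher in sons than in daughters, in all 3 diet lines. Over the 29 sons of these days, Prat had a lowest, median and highest level of 8.17, 12.1 and 20.3 CPM, against 21.6, 109 and 144 CPM over the 29 daughters. Prat2 had a lowest, median and highest level of 36.6, 189 and 419 CPM in the sons, against 28.7, 66.4 and 108 CPM in the daughters. For Prat the sexes did not overlap, and for Prat2 they did.

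Sons were set against daughters within each line by edgeR's quasi-likelihood test with Benjamini-Hochberg adjustment over all genes tested, and a gene is called at an adjusted p under 0.05. The fitted log2 fold change of Prat in sons over daughters was -2.62 ± 0.23 (SE) in the HFD line, -3.38 ± 0.23 in the HSD line and -2.96 ± 0.23 in the CD line at day 10. At day 50 it was -3.47 ± 0.17, -3.12 ± 0.13 and -2.75 ± 0.13 in the HFD, HSD and CD lines, and the largest of the 6 adjusted p-values was 1.1e-10. Prat was lower in sons in each of these 6 comparisons. Prat2 was called higher in sons in all 6: its log2 fold change at day 10 was 1.62 ± 0.25 (adjusted p = 2.16e-06) in the HFD line, 1.995 ± 0.25 (adjusted p = 5.5e-08) in the HSD line and 0.65 ± 0.24 (adjusted p = 0.0172) in the CD line. At day 50 the values were 1.94 ± 0.40, 1.78 ± 0.38 and 1.76 ± 0.36 in the HFD, HSD and CD lines, with adjusted p-values of 8.73e-05, 0.000156 and 0.000101. The CD call at day 10 was lost without daughter f20, at an adjusted p of 0.0558, and in a fit of all progeny together, at 0.169. Sex moved most of the transcriptome at these ages: 70.7% of tested genes were called at day 10 in the HFD line, 84.1% in the HSD line and 78.8% in the CD line, and 83.3%, 86% and 82.8% at day 50. Of the 19 member values tested at day 10, 12 were called, and 15 of 21 at day 50, shares below those of all genes.

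**Figure D1:**
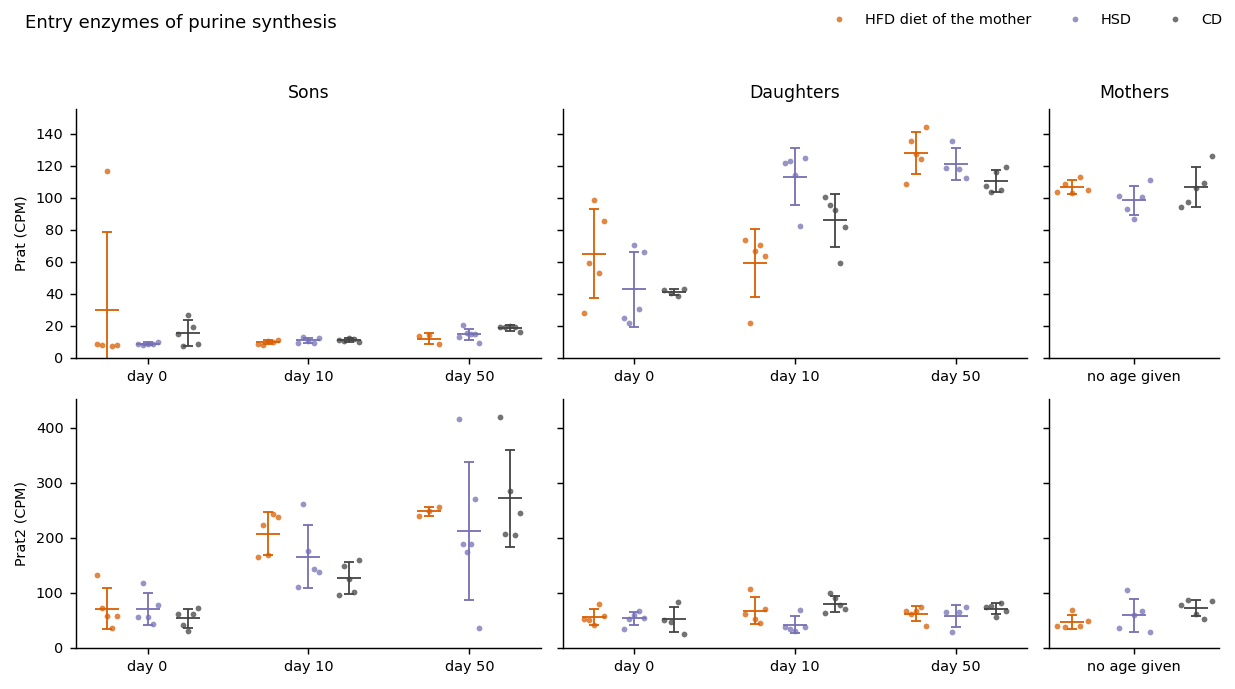
CPM of Prat and Prat2 (vertical axes, from 0) in each library (points) by day of the progeny, with sons, daughters and mothers in separate panels and the diet of the mother by colour; bars are group means ± SD. Prat in sons stays at 8.17 to 20.3 CPM at days 10 and 50, below every daughter of these days, while Prat2 reaches 419 CPM in sons.

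Put on a per-length scale, as CPM per kilobase of exon, Prat was a minor part of the sum of both genes in sons and the larger part in most daughters. Its share of the sum had a lowest, median and highest value of 3.05%, 6.16% and 20.6% in sons of days 10 and 50, against 17%, 61.7% and 82.8% in daughters. The overlap comes from 1 son and 1 daughter: m45, at 20.6%, with the next son at 10.7%, and the HFD daughter f22, at 17%, with the next daughter at 43.5%. Group means in daughters were 47.5% ± 17.8, 73.3% ± 10.2 and 52.0% ± 6.69 at day 10 in the HFD, HSD and CD lines (SD, n = 5 each), so in HFD daughters of day 10 Prat was not the larger part on average. Mothers had group means of 70.3% ± 5.92, 64.3% ± 12.8 and 60.2% ± 6.12 on HFD, HSD and CD (SD, n = 5 each). The 2 genes are paralogs, and a read-assignment tool that shares reads among similar transcripts, as kallisto does, can divide counts between them; this was not tested.

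Prat levels ran alongside transcripts of the ovary. Over 9 ovary genes (osk, nanos, vas, grk, bcd, exu, spn-E, otu and aub) the mean log2 CPM was 4.0 in f22 and 6.62 to 7.09 in the other HFD daughters of day 10, and Prat in f22 was 21.6 CPM against 63.7 to 73.6 CPM in these others. In the library labelled as son m8 the ovary list stood at 7.97, against 2.06 to 2.42 in the other HFD sons of day 0, and Prat at 117 CPM, against 7.36 to 8.48 CPM. Day 50 daughters, with ovary means of 7.60 to 8.02, had 104 to 144 CPM of Prat. No ovary gene was at 0 in any daughter library, and at most 3 of the 9 were at 0 in a son. The list is not of the ovary alone, since some of its transcripts were abundant in sons. Its summed level was 790 to 920 CPM in CD sons of day 10, against 1642 to 2534 CPM in CD daughters. At day 0 it was 964 to 1316 CPM in HSD sons, against 359 to 1901 CPM in HSD daughters. The part of ovary content in the level of Prat was not tested.

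**Figure D2:**
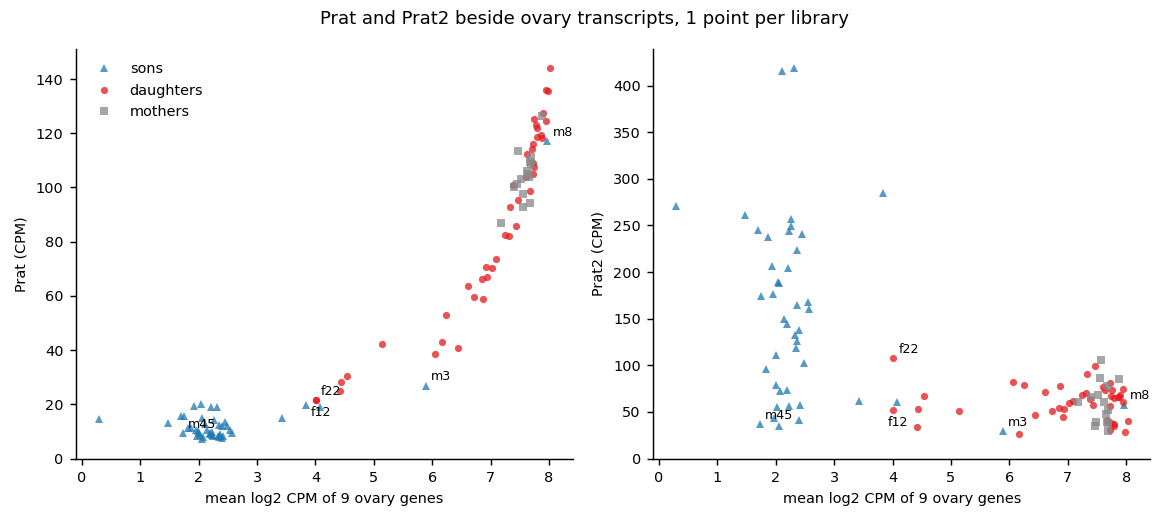
Prat (left) and Prat2 (right) in CPM against the mean log2 CPM of 9 ovary genes, 1 point per library, with sons as triangles, daughters as circles and mothers as squares. Prat is highest where ovary transcripts are highest, up to 144 CPM in a day 50 daughter, and the library labelled as son m8, at 117 CPM, lies among the females; Prat2 passes 108 CPM in sons only.

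At day 0 Prat was called lower in sons in the HSD line, but not in the HFD and CD lines with all libraries. Prat levels in sons were 8.48, 7.84, 117, 7.36 and 8.17 CPM in the HFD line, against 28.1, 59.4, 98.6, 53.1 and 85.7 CPM in HFD daughters. Leaving out m8, every son was below every daughter. In the HSD line sons had 8.56, 8.06, 8.71, 8.39 and 10.1 CPM, against 25.1, 21.7, 70.3, 30.6 and 66.3 CPM in daughters, a log2 fold change of -2.20 ± 0.65 (edgeR, adjusted p = 0.0114) with 41.2% of tested genes called. CD sons had 15.0, 7.58, 26.9, 19 and 8.92 CPM, against 42.3, 40.6, 38.7 and 43 CPM in CD daughters, with no overlap. The fitted values, -1.14 ± 0.62 in the HFD line (29.7% of genes called) and -1.31 ± 0.66 in the CD line (28.4%), missed the threshold with edgeR adjusted p-values of 0.203 and 0.162. Without the 5 libraries that held transcripts of the other sex they were -2.89 (edgeR, adjusted p = 3.2e-08) and -2.25 (edgeR, adjusted p = 7.51e-05). Prat2 was not called between the sexes at day 0 in any line: its means were 71.1 ± 36.9 and 56.4 ± 14.1 CPM in HFD sons and daughters, and the 3 log2 fold changes were 0.40, 0.51 and 0.14 in the HFD, HSD and CD lines.

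With age, Prat2 changed in sons and Prat in daughters. Prat2 in CD sons was 62.0, 41, 29.6, 60.9 and 73.0 CPM at day 0, then 95.9, 150, 126, 102 and 161 CPM at day 10, then 419, 207, 285, 204 and 245 CPM at day 50, with no overlap between successive days. The log2 fold change was 1.29 ± 0.26 for day 10 over day 0 (edgeR, adjusted p = 0.00176; 27.8% of genes called) and 1.16 ± 0.26 for day 50 over day 10 (adjusted p = 0.00133; 65.8% called). Without the libraries that held transcripts of the other sex the first of these was 1.14 (edgeR, adjusted p = 0.0396). In HFD sons the first step was 1.55 ± 0.30 (edgeR, adjusted p = 0.00699; 8.08% called) and the second 0.27 ± 0.33 (edgeR, adjusted p = 0.915; 1.47% called). In HSD sons the steps were 1.25 ± 0.47 and 0.36 ± 0.45, neither called, with 0.402% and 0% of genes called; without m45, whose Prat2 was 36.6 CPM against 175 to 415 CPM in the other 5, the first step was called (edgeR, adjusted p = 0.0237). In daughters Prat2 was called for neither step in any line, at 25.9 to 108 CPM over all 43, except that without f29 the step to day 10 in HSD daughters was called (-0.79; edgeR, adjusted p = 0.0199).

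Prat in CD daughters averaged 41.2 ± 1.90 CPM at day 0 (n = 4), 86.0 ± 16.6 at day 10 and 110.4 ± 6.97 at day 50 (SD, n = 5 each). The step to day 10 was called at a log2 fold change of 0.90 ± 0.11 (edgeR, adjusted p = 2.59e-05; 71.2% of genes called), with every day 10 library above every day 0 library. HSD daughters had 113 ± 17.7 CPM at day 10, against 42.8 ± 23.5 CPM at day 0, a log2 fold change of 1.23 ± 0.31 (edgeR, adjusted p = 0.00367; 73.2% called). HFD daughters were not called at that step, with 59.3 ± 21.4 CPM at day 10, against 65.0 ± 27.8 CPM at day 0 (log2 fold change -0.01 ± 0.33; 0% of genes called). Between days 10 and 50 every CD and HFD daughter of day 50 was above every one of day 10, but at log2 fold changes of 0.21 ± 0.10 and 0.77 ± 0.34 Prat missed the threshold (edgeR, adjusted p = 0.0971 and 0.058), the second being called without f40, at 0.047. The ovary list ran alongside: it was 4.43 to 7.67 in HFD, 4.01 to 7.02 in HSD and 5.14 to 6.44 in CD daughters of day 0, and 4.0 to 7.09, 7.25 to 7.79 and 6.86 to 7.46 at day 10. In sons, Prat was called at 1 step, with 18.7 ± 1.61 CPM in CD sons at day 50, against 11.2 ± 1.13 CPM at day 10 (log2 fold change 0.80 ± 0.25; edgeR, adjusted p = 0.0118). That call was lost without m20, at an adjusted p of 0.0523, and in the fit of all progeny, at 0.0839. Without m45 the same step was called in HSD sons (0.55; edgeR, adjusted p = 0.0345).

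Gart, Pfas and Paics act after the entry step. Gart (FBgn0000053, minus strand of 2L, 7014623 to 7023898) codes for a protein with 3 enzyme activities of the pathway, Pfas (FBgn0000052, minus strand of 2L, 6041181 to 6046050) for the synthase that makes formylglycinamidine ribonucleotide, and Paics (FBgn0020513, minus strand of X, 12757036 to 12760617) for a protein that joins a carboxylase and a synthetase activity. Their differences between the sexes varied with gene and day. Paics was higher in sons at day 50, with a lowest, median and highest level of 112, 614 and 1122 CPM over 14 sons, against 135, 208 and 230 CPM over 14 daughters; the 1 son below the highest daughter was m45. Its log2 fold change was 1.34 ± 0.34 in the HFD line (edgeR, adjusted p = 0.000842), 1.56 ± 0.32 in the HSD line (adjusted p = 0.000106) and 1.56 ± 0.31 in the CD line (adjusted p = 5.98e-05). At day 10 HSD sons had 175, 647, 310, 245 and 192 CPM, against 132, 138, 174, 138 and 145 CPM in HSD daughters, a log2 fold change of 1.11 ± 0.24 (edgeR, adjusted p = 0.000105). The day 10 HFD and CD daughters had set the choice of genes, so their comparisons with sons are given as values: 380 ± 20.1 CPM in HFD sons and 249 ± 42.3 CPM in HFD daughters, and 351 ± 72.5 CPM in CD sons and 154 ± 19.9 CPM in CD daughters (SD, n = 5 each).

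Pfas ran the other way at day 10. It was lower in HSD sons, at 101 ± 56.1 CPM against 187 ± 12 CPM in HSD daughters (log2 fold change -0.88 ± 0.22; edgeR, adjusted p = 0.000569), and in CD sons, at 129 ± 26.8 CPM against 183 ± 24 CPM in CD daughters (log2 fold change -0.52 ± 0.22; edgeR, adjusted p = 0.0313). The CD call was lost without m16, at an adjusted p of 0.0552, with median-of-ratios scaling, at 0.0556, and in DESeq2, at 0.0549. It was lost in the fit of all progeny too, at 0.0864. Gart did not pass the test between the sexes at day 10, with log2 fold changes of 0.11, -0.20 and -0.09 in the HFD, HSD and CD lines. In the HSD line this rests on all libraries, with Gart at 221 CPM in son m27. The other HSD sons had 62.9 to 90.4 CPM of Gart, below every HSD daughter, at 103 to 151 CPM. Without m27 edgeR called 3 members lower in HSD sons of day 10, against 2 with all libraries. Which member was added is not given here. At day 0 Gart was lower in sons of the HFD line, at 84.9 ± 41.9 CPM against 155 ± 50.4 CPM in daughters (log2 fold change -0.84 ± 0.28; edgeR, adjusted p = 0.0242, up to 0.0794 with 1 library left out). Without the libraries that held transcripts of the other sex, Gart was called there at -1.08 (edgeR, adjusted p = 0.000441). It was also lower in HSD sons, at 52.9 ± 11.9 CPM against 129 ± 36 CPM in daughters (log2 fold change -1.18 ± 0.28; edgeR, adjusted p = 0.00327), with no overlap. Paics was lower in HSD sons of day 0 too, at 110.2 ± 40.3 CPM against 196 ± 27.8 CPM in daughters (-0.72 ± 0.26; edgeR, adjusted p = 0.0305), a call lost in 4 of the fits with 1 library left out, at up to 0.121. At day 50 Gart was called higher in CD sons than in CD daughters (log2 fold change 1.33 ± 0.47; edgeR, adjusted p = 0.0116), but without library m31 the fold change was 0.54 and the adjusted p 0.199.

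**Figure D3:**
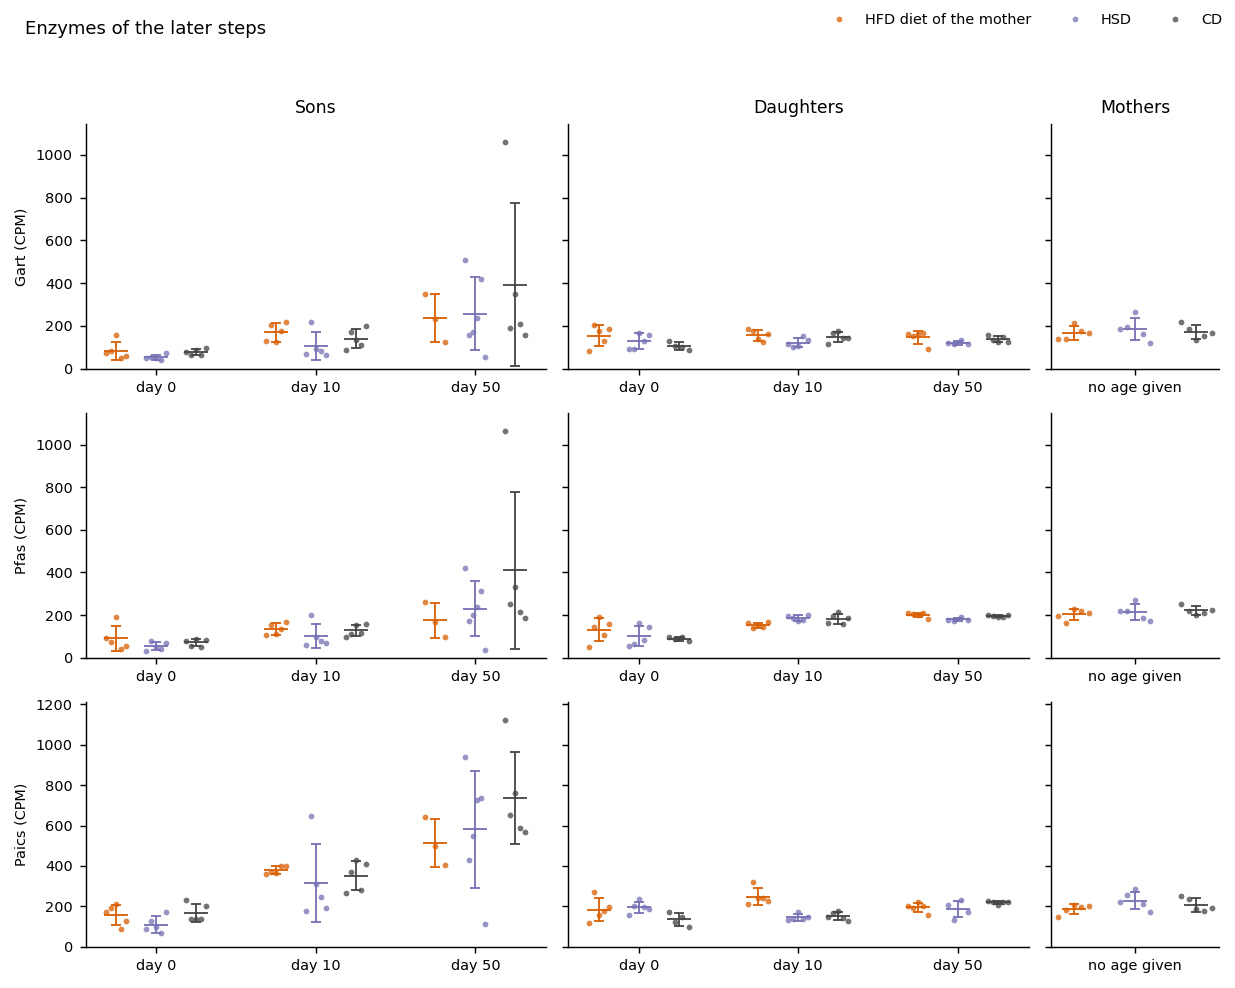
CPM of Gart, Pfas and Paics (vertical axes, from 0) in each library (points) by day of the progeny, with sons, daughters and mothers in separate panels and the diet of the mother by colour; bars are group means ± SD. The CD son m31 of day 50 stands above all other libraries at 1060, 1063 and 1122 CPM, and Paics in daughters stays at 96.2 to 320 CPM.

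In CD sons the synthesis pathway was higher at day 50 than at day 10. All 5 synthesis genes and Uro rose, 6 of the 7 members, where 65.8% of all tested genes were called and 34% were called higher. Paics was 1122, 651, 762, 587 and 568.1 CPM at day 50, against 267, 371, 428, 283 and 408 CPM at day 10, with no overlap (log2 fold change 1.13 ± 0.22; edgeR, adjusted p = 0.000412). Pfas was 1063, 254, 333, 213 and 186 CPM, against 99.5, 113, 155, 117 and 159 CPM, again with no overlap (1.73 ± 0.42; edgeR, adjusted p = 0.00252). Gart was 1060, 190, 350, 209 and 158 CPM, against 88.3, 172, 133, 110 and 199 CPM, and the days overlapped (1.55 ± 0.46; edgeR, adjusted p = 0.00905). The first library in each list is m31, whose Gart and Pfas were at least 3 times those of any other CD son of day 50. Without it the log2 fold changes were 0.71 for Gart and 0.95 for Pfas and both calls held, with edgeR adjusted p-values of 0.0324 and 0.00226. The median log2 fold change was 1.16 over the 7 members and 0.08 over all genes tested.

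Testis transcripts were lower at day 50 in the same comparison. The mean log2 CPM of 8 testis genes was 1.88 to 4.17 in CD sons of day 50, with m31 the lowest and m35 next at 1.99, against 5.97 to 6.30 at day 10. Gart and Pfas were at 158 and 186 CPM in m35, the lowest of that group. In HSD sons of day 10, library m27 had a testis mean of 2.63, against 5.99 to 6.40 in the other 4, and it was also the highest of its group in all 7 members. HFD sons of day 50 had testis means of 5.58 to 5.76, and their Paics, at 640, 497 and 407 CPM, lay above every HFD son of day 10, at 362, 368, 364, 402 and 401 CPM, without a call (log2 fold change 0.45 ± 0.26; edgeR, adjusted p = 0.612). The part of testis content in these changes was not tested.

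Between days 0 and 10 Paics rose in CD sons (log2 fold change 1.103 ± 0.22; edgeR, adjusted p = 0.00142) and in HFD sons (1.25 ± 0.23; edgeR, adjusted p = 0.00573). In both lines all 5 sons of day 10 were above all 5 of day 0, at 267 to 428 against 135 to 231 CPM in CD sons and at 362 to 402 against 89.7 to 210 CPM in HFD sons. Without m8, HFD sons also had Gart and Pfas called at that step, with log2 fold changes of 1.32 and 1.03 (edgeR, adjusted p = 0.00546 and 0.027), and 34% of all genes were called. HFD sons had 0 members called by edgeR between days 10 and 50, where 1.47% of genes were, with 1 member at an unadjusted p under 0.05 and 1 called by DESeq2. Without m8, 43.2% of genes were called at that step and 1 member, Uro. HSD sons had no member called by edgeR at either step, where 0.402% and 0% of genes were, although 2 members at the first and 5 at the second had an unadjusted p under 0.05; DESeq2 called 1 at each. The counts rest on library m45, and that of the second step on m27 too. Without m27 of day 10, edgeR called 5 members higher at the second step, where 27.8% of all genes were called. The 7 levels of m45 were each the lowest of its group, for example 112 CPM of Paics against 429 to 939 CPM in the other 5. Without m45, 2 members were called higher at day 10 than at day 0 and 6 at day 50 than at day 10, with 11.6% and 21.1% of all genes called. Gart then had a log2 fold change of 1.498, Pfas 1.41 and Paics 1.11 for day 50 over day 10 (edgeR, adjusted p = 0.0301, 0.0276 and 0.0479).

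In daughters the tested calls of these genes were between days 0 and 10, in the CD and HSD lines. Pfas rose at the first step in CD daughters, to 161, 196, 214, 157 and 188 CPM at day 10, against 97.4, 85.7, 95 and 77.7 CPM at day 0 (log2 fold change 0.88 ± 0.08; edgeR, adjusted p = 7.84e-06). In HSD daughters it was 187 ± 12 CPM at day 10, against 102 ± 48.4 CPM at day 0 (0.71 ± 0.26; edgeR, adjusted p = 0.0274), a call lost in 5 of the fits with 1 library left out, f12 among them, at up to 0.0596. Gart was called in CD daughters at 0.33 ± 0.13 (edgeR, adjusted p = 0.0294), with libraries of both days overlapping, but not by DESeq2, at 0.0562. The call was also lost in 5 of the fits with 1 library left out and in the fit of all progeny, at 0.3055. Paics fell in HSD daughters to 146 ± 16.9 CPM at day 10, against 196 ± 27.8 CPM at day 0 (log2 fold change -0.59 ± 0.14; edgeR, adjusted p = 0.00252). This call was lost in the fit of all progeny, at an adjusted p of 0.178. No member was called between days 10 and 50 in HSD daughters, where 0.853% of genes were, none had an unadjusted p under 0.05 and DESeq2 called 0. In CD daughters 46.2% of genes were called between these days, and none of the 6 members other than Paics was.

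The values behind the choice of the set are those of Paics in day 10 daughters. HFD daughters had 210, 320, 241, 244 and 228 CPM, HSD daughters 132, 138, 174, 138 and 145 CPM and CD daughters 149, 169, 178, 144 and 129 CPM. Every HFD library was above every HSD and CD library. In that HFD against CD contrast 0.0483% of all genes were called and Paics was the member among them; nothing is read from this, since it chose the genes. The comparisons of HFD with HSD and of HFD with CD share the HFD libraries. The fitted log2 fold change of Paics for HFD over CD was 0.78, or 0.67 without f22. Among the others ry had 0.92, Gart 0.16, Uro -0.11, Prat2 -0.16, Pfas -0.18 and Prat -0.45. Library f22, the highest in Paics, was also the highest of the group in Prat2, ry and Uro and the lowest in Prat. It had the highest larval fat body and muscle means of the group too, at 5.44 and 12.44 log2 CPM, and the lowest ovary mean, at 4.0. Whether this bears on its levels of the members was not tested.

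Between HSD and HFD daughters of day 10, 66.3% of all tested genes were called. Of the 6 members other than Paics, Prat was higher in HSD daughters, at 122, 123, 114, 82.6 and 125 CPM against 73.6, 21.6, 67.0, 70.8 and 63.7 CPM in HFD daughters, with no overlap (log2 fold change 0.76 ± 0.25; edgeR, adjusted p = 0.0172). Prat2, Gart and ry were lower in HSD daughters, with log2 fold changes of -0.85 ± 0.27, -0.53 ± 0.15 and -1.44 ± 0.34 (edgeR, adjusted p = 0.0137, 0.00956 and 0.00416) and with overlapping groups. Pfas and Uro were not called, at 0.12 and -0.56, although every HSD library was above every HFD library in Pfas. Leaving out f22 kept the 4 calls, at log2 fold changes of 0.54 for Prat, -0.63 for Prat2, -0.49 for Gart and -1.10 for ry. Without HSD library f29 Uro was called as well, at -0.83 (edgeR, adjusted p = 0.00739), and in a fit of all progeny together Gart and Prat2 were not, at 0.434 and 0.0663. The ovary list was 7.25 to 7.79 in HSD and 4.0 to 7.09 in HFD daughters, the muscle list 7.63 to 10.04 and 10.16 to 12.44, and their part in these differences was not tested. HSD and CD daughters of day 10 had no member called by edgeR and 0% of genes called, with 3 members at an unadjusted p under 0.05 and 1 called by DESeq2. Without f29, HSD daughters had Prat2, Gart and Uro called lower than CD daughters, where 12.3% of all genes were then called, with log2 fold changes of -1.29, -0.48 and -0.93 (edgeR, adjusted p = 0.0297, 0.0473 and 0.0376).

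The urate-making enzyme, xanthine dehydrogenase, is encoded by ry (rosy), FBgn0003308, on the plus strand of 3R at 13032528 to 13038020. Its transcript was the least abundant of the 7 per length, with a median of 7.89 CPM per kilobase over all libraries, against 20.3 for Prat and 79.7 for Paics. It was higher in sons than in daughters at days 10 and 50 in all 3 lines. At day 10 sons had a lowest, median and highest level of 35.9, 55.1 and 82.8 CPM, against 9.96, 18.1 and 63.8 CPM in daughters, the daughter at 63.8 being f22. At day 50 the values were 34.6, 68.5 and 107 CPM in sons, against 7.37, 14.6 and 17.9 CPM in daughters, with no overlap. The log2 fold changes at day 50 were 2.50 ± 0.27, 2.22 ± 0.26 and 1.99 ± 0.24 in the HFD, HSD and CD lines, and the largest edgeR adjusted p-value was 6.34e-08. At day 10 they were 0.75 ± 0.27 (adjusted p = 0.0139), 1.72 ± 0.27 (adjusted p = 2.09e-06) and 1.61 ± 0.27 (adjusted p = 6.06e-06), and the HFD value was 1.103 without f22. The HFD value missed the threshold without f24, at 0.0542, and in the fit of all progeny, at 0.0632.

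In daughters ry fell with age. CD daughters had 19.3 ± 2.77 CPM at day 10, against 28.1 ± 11.3 CPM at day 0 (log2 fold change -0.68 ± 0.21; edgeR, adjusted p = 0.0104), and HSD daughters had 14.3 ± 6.06 CPM at day 10, against 31.3 ± 6.91 CPM at day 0 (-1.27 ± 0.29; edgeR, adjusted p = 0.00216). The CD call was lost in the fit of all progeny, at an adjusted p of 0.139. In HFD daughters the fall was between days 10 and 50: they had 13.7, 12.2, 11.7, 9.81 and 7.37 CPM at day 50, against 34.8, 63.8, 22.7, 18.1 and 33.9 CPM at day 10, with no overlap (-1.94 ± 0.34; edgeR, adjusted p = 0.000589; 62.9% of genes called). Without f22 that log2 fold change was -1.61 and the call held. Tissue lists differed between the same libraries: in HFD daughters the ovary list was 7.73 to 8.02 at day 50, against 4.0 to 7.09 at day 10, and the muscle list 4.86 to 5.96, against 10.16 to 12.44. Between days 10 and 0 the muscle list was 7.63 to 10.04 against 10.05 to 13.20 in HSD daughters and 9.85 to 11.67 against 12.57 to 13.002 in CD daughters, and the ovary list was higher at day 10 in both without overlap. The part of these tissues in the level of ry was not tested. In sons ry was called at neither step in any line. Leaving out m8 gave a log2 fold change of 0.43 for day 10 over day 0 in HFD sons (edgeR, adjusted p = 0.0307), and leaving out m45 gave a log2 fold change of 0.73 for day 50 over day 10 in HSD sons (edgeR, adjusted p = 0.0296). At day 0 the sexes were not called apart in ry, with log2 fold changes of 0.32, 0.45 and 0.69 in the HFD, HSD and CD lines. Library m8, at 13.1 CPM, had the lowest ry of the HFD sons of day 0, against 39.2 to 47.0 CPM in the other 4.

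**Figure D4:**
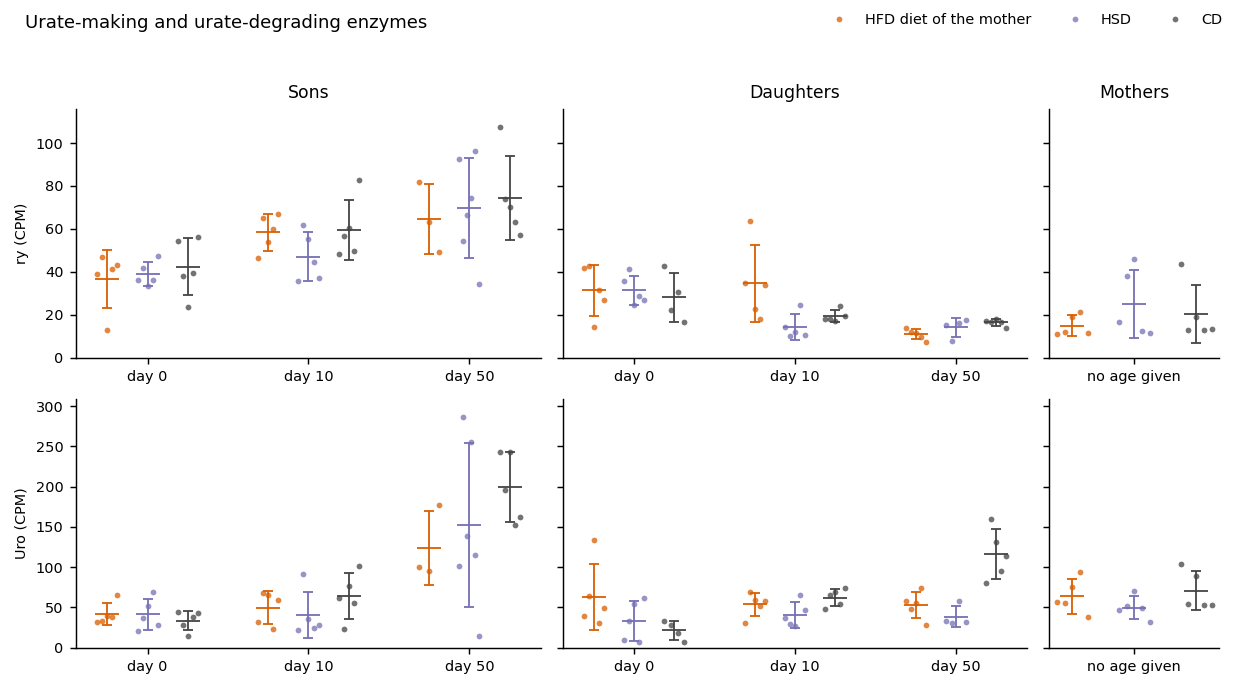
CPM of ry and Uro (vertical axes, from 0) in each library (points) by day of the progeny, with sons, daughters and mothers in separate panels and the diet of the mother by colour; bars are group means ± SD. Sons and daughters separate in ry at day 50, and among day 50 daughters the CD libraries are the highest in Uro, at 80.3 to 160 CPM.

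Urate oxidase is encoded by Uro, FBgn0003961, on the plus strand of 2L at 7780085 to 7781415. Uro was lower in old daughters of HFD and HSD mothers than in those of CD mothers. At day 50 HFD daughters had 57.7, 48.6, 55.8, 74.2 and 28.5 CPM and HSD daughters 33.2, 30.4, 57.9 and 31.8 CPM, against 80.3, 160, 131, 95.6 and 114 CPM in CD daughters. Every HFD and HSD library was below every CD library. The log2 fold change was -1.73 ± 0.30 for HSD over CD (edgeR, adjusted p = 0.00537), a contrast in which 8.97% of all genes were called and 6.17% were called lower. For HFD over CD it was -1.25 ± 0.27 (edgeR, adjusted p = 0.0163), with 5.87% of genes called and 5.26% called lower. Both contrasts use the same CD libraries. The HSD call held with each library left out, at adjusted p-values up to 0.026, and missed the threshold when all progeny were fitted together, at 0.0564. The HFD call was lost without CD library f32 or HFD library f38, at adjusted p-values up to 0.058, and in the fit of all progeny, at 0.237.

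Transcripts of the Malpighian tubule were measured beside it. The summed level of 9 tubule genes was 165 to 333 CPM in HFD, 194 to 251 CPM in HSD and 226 to 301 CPM in CD daughters of day 50, with no gene at 0. As a mean log2 CPM the list was 2.87 to 4.07 in HFD, 3.25 to 3.91 in HSD and 3.68 to 4.1999 in CD daughters. The groups overlapped on both scales, and the part of tubule content in the level of Uro was not tested. The ovary list was 7.73 to 8.02, 7.63 to 7.98 and 7.60 to 7.86 in the same groups. Sons of day 50 had their own spread of Uro, with 100, 94.7 and 177 CPM in the HFD line, a lowest, median and highest level of 14.2, 127 and 286 CPM in the HSD line, and 244, 196, 243, 152 and 162 CPM in the CD line. These groups overlapped, and neither diet was called (log2 fold changes of -0.71 ± 0.63 for HFD and -0.45 ± 0.51 for HSD over CD). The difference between sons and daughters in these diet effects was 0.57 ± 0.63 for HFD and 1.29 ± 0.60 for HSD on the log2 scale, sons minus daughters, and neither was called (edgeR, adjusted p = 0.716 and 0.393).

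Uro was higher in the older flies of the CD line. CD daughters rose to 61.9 ± 10.6 CPM at day 10, against 21.7 ± 11.9 CPM at day 0 (log2 fold change 1.37 ± 0.34; edgeR, adjusted p = 0.00255), and had 116 ± 31 CPM at day 50 (0.76 ± 0.30 over day 10; edgeR, adjusted p = 0.0531, with no overlap). CD sons rose to 199 ± 43.3 CPM at day 50, against 63.7 ± 28.6 CPM at day 10 (1.70 ± 0.35; edgeR, adjusted p = 0.000615), with no overlap. HFD and HSD daughters had 52.9 ± 16.6 and 38.3 ± 13.1 CPM at day 50, against 53.9 ± 14.2 and 40.9 ± 15.9 CPM at day 10, and neither step was called. In HFD sons the step to day 50 was 1.32 ± 0.37 (edgeR, adjusted p = 0.131; 0.0171 without m8), and in HSD sons 1.91 ± 0.62 (edgeR, adjusted p = 0.161; 0.0208 without m45). Between the sexes at day 50, Uro was higher in HSD sons than in HSD daughters (1.89 ± 0.46; edgeR, adjusted p = 0.000538) and in HFD sons than in HFD daughters (1.17 ± 0.47; edgeR, adjusted p = 0.0256). The HFD call was lost in 14 of the fits with 1 library left out, at adjusted p-values up to 0.159, and in the fit of all progeny, at 0.071.

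Beside Uro, 1 other member was called by maternal diet at day 50 in daughters. Pfas had 176.5, 174.6, 189.8 and 177.5 CPM in HSD daughters, against 200, 194, 190.1, 193 and 202 CPM in CD daughters, a log2 fold change of -0.26 ± 0.06 (edgeR, adjusted p = 0.0212). The highest HSD library was just below the lowest CD library, and the call was lost in 6 of the fits with 1 library left out and in the fit of all progeny. Without HFD library f40, Gart was called lower in HSD than in CD daughters too, at -0.33 (edgeR, adjusted p = 0.0264), and Gart and Pfas lower in HSD than in HFD daughters, at -0.45 and -0.22 (edgeR, adjusted p = 0.0214 and 0.0304); 15% and 3.5% of all genes were called in these 2 contrasts without f40. With all libraries edgeR called 0 members and 0% of genes between HSD and HFD, with 1 member at an unadjusted p under 0.05 and DESeq2 at 0. Between HFD and CD daughters 3 members had an unadjusted p under 0.05, and DESeq2 called 2. In ry every HFD library, at 7.37 to 13.74 CPM, was below every CD library, at 13.84 to 17.87 CPM, without an edgeR call. Prat in these daughters was close in all 3 lines, at 128 ± 13.2, 121 ± 9.98 and 110.4 ± 6.97 CPM in HFD, HSD and CD.

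**Figure D5:**
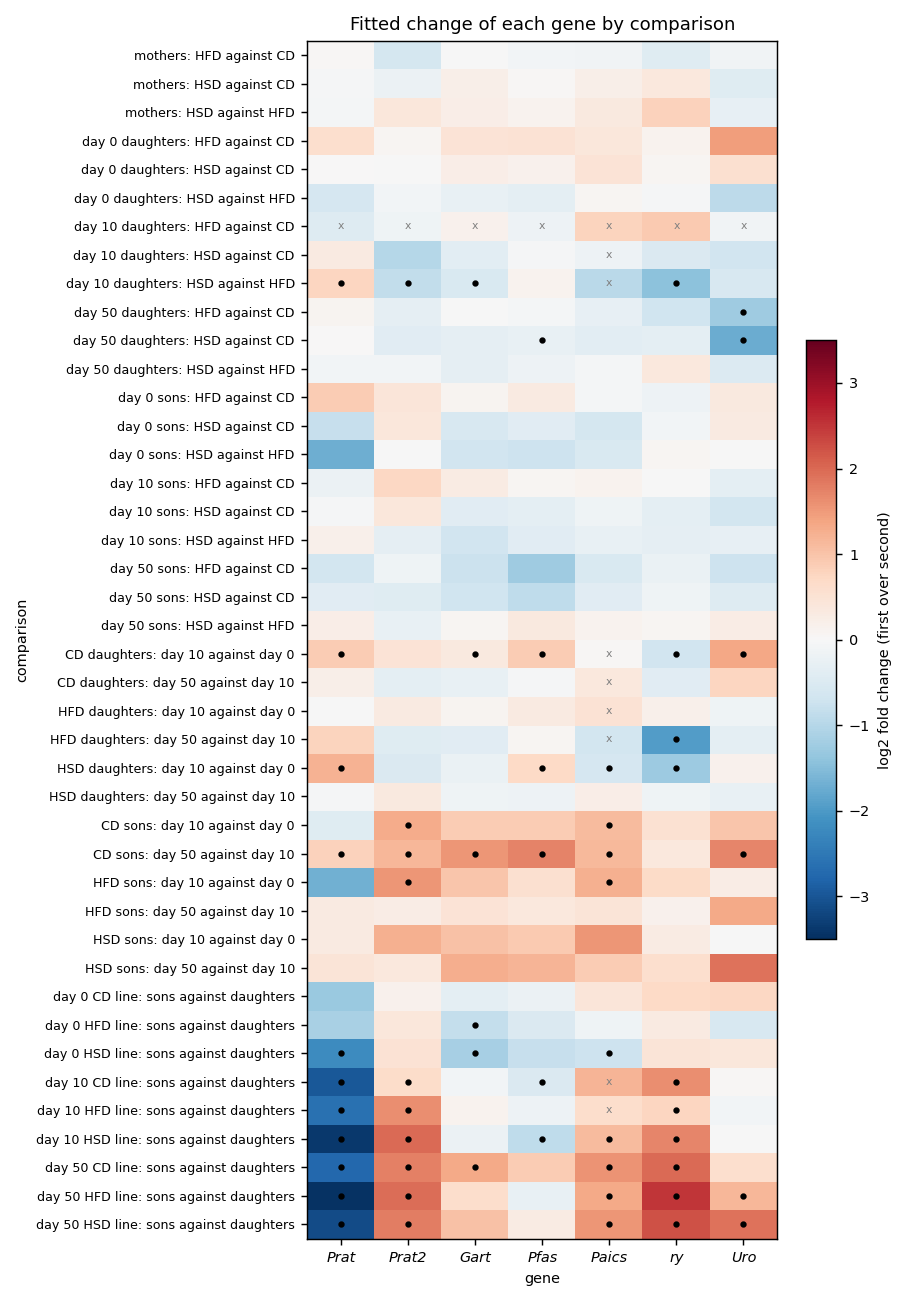
Fitted log2 fold change of each gene (columns) in each comparison (rows), first named group over the second, in colour from blue (lower) to red (higher). Dots mark an edgeR adjusted p under 0.05 and crosses mark values given without a test; rows of sons against daughters at days 10 and 50 are blue for Prat, at -2.62 to -3.47, and red for Prat2 and ry.

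Elsewhere the diet of the mother moved none of the 7 genes past the threshold. Over 21 member values each, edgeR called 0 in day 0 daughters, 0 in day 0 sons, 0 in day 10 sons and 0 in day 50 sons, where 0% of all genes were called in each of the 12 contrasts. At an unadjusted p under 0.05 there were 1, 3, 1 and 1, and DESeq2 called 0, 0, 0 and 1. The share of all genes depended on single libraries: without m45, 17.2% were called for HFD against CD in day 50 sons, and without m8, 4.43% for HSD against CD in day 0 sons, with 1 and 0 members among them. Groups of sons were apart in Prat2 at day 10, at 165, 223, 168, 244 and 238 CPM in HFD sons against 95.9, 150, 126, 102 and 161 CPM in CD sons, where every HFD library was above every CD library (log2 fold change 0.71 ± 0.22; edgeR, adjusted p = 1). They were apart again in Prat at day 50, at 13.4, 14.2 and 8.41 CPM in HFD sons against 19.1, 19.5, 19.7, 19.1 and 15.8 CPM in CD sons (-0.65 ± 0.24; edgeR, adjusted p = 0.106, or 0.0441 without HSD library m45). Of 40 differences between sons and daughters in the diet effect, edgeR called 0, with 7 at an unadjusted p under 0.05 and 1 called by DESeq2, that of Prat for HFD against CD at day 50. Of all genes, 0% were called in this way in both contrasts of day 0 and in HSD against CD of day 10, 0.00779% in HFD against CD of day 10, and 0.202% and 0.0622% in HFD and HSD against CD of day 50.

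The mothers, who ate the diets themselves, showed no called member either. edgeR called 0 of 21 values and 0% of all genes, with 1 value at an unadjusted p under 0.05 and DESeq2 at 0. Prat2 had 39.6, 37.7, 68.2, 38.9 and 47.9 CPM in HFD mothers and 35.1, 105, 60.4, 66.0 and 29.5 CPM in HSD mothers, against 77.8, 86.4, 60.6, 51.9 and 85.0 CPM in CD mothers, with overlap (log2 fold change -0.60 for HFD over CD, edgeR adjusted p = 0.999). ry ranged from 11.2 to 46.0 CPM, with a median of 13.4 CPM, close to the 14.6 CPM median of day 50 daughters. Prat, at a lowest, median and highest level of 87.0, 104 and 126 CPM, overlapped the 104 to 144 CPM of day 50 daughters. Mothers and progeny came in separate count tables and the mothers' age is unknown, so the generations were set side by side without a test.

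Related genes were taken as lists, which were drawn up with earlier results of these data known. Of the 5 other genes of the de novo and AMP or GMP branches (Adsl, CG11089, Adss, ras and bur), all 5 rose in CD sons of day 50 against day 10, where 34% of all genes did. Adss, which starts the AMP branch, had a log2 fold change of 1.01 there, and Adsl, adenylosuccinate lyase, 1.19 (edgeR, adjusted p = 8.46e-06 and 0.000135). CG11089 stood at 513 ± 390 CPM at day 50, against 188 ± 50.9 CPM at day 10 (1.51; edgeR, adjusted p = 0.00352). Related genes are given with all libraries only, and whether the CG11089 calls in CD sons of day 50 rest on m31 was not tested. Between the sexes 4 of 5 were lower in sons and 0 higher at day 10 in each line, where 33.1% to 35.9% of all genes were lower. At day 50, 3 were lower and 0 higher in HFD sons, and 2 lower and 1 higher in HSD and in CD sons, with CG11089 the higher one in the CD line (1.37; edgeR, adjusted p = 0.00418). ras, inosine monophosphate dehydrogenase of the GMP branch, had 73.7 ± 12.9 CPM in HSD sons of day 10, against 232 ± 17.9 CPM in HSD daughters (-1.65; edgeR, adjusted p = 2.96e-12).

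Pyrimidine and deoxynucleotide genes were lower still in sons. Of 7, 6 were called lower in sons and 1 higher at day 10 in each line, and 7 lower in the CD line at day 50, where 35.8% of all genes were. RnrS, a subunit of ribonucleotide reductase, had 16.5 ± 6.11 CPM in HSD sons of day 50, against 373 ± 42.8 CPM in HSD daughters (-4.57; edgeR, adjusted p = 3.9e-16). In the HSD line at day 50 one-carbon folate genes leaned to sons, with 9 of 12 higher and 2 lower, where 51.7% of all genes were called higher. Counts of this list in the other lines and days are not given here. Gnmt, glycine N-methyltransferase, had 599 ± 128 CPM in HFD sons of day 50, against 3.0 ± 2.25 CPM in HFD daughters (7.58; edgeR, adjusted p = 1.99e-08), while Ts, thymidylate synthase, was lower in sons. Of 21 genes of phosphoribosyl pyrophosphate supply, salvage and interconversion, 13 were higher and 5 lower in CD sons than in CD daughters of day 50, where 47% and 35.8% of all genes were.

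Among genes around urate, the aldehyde oxidase gene AOX1 was lower in old daughters of the HFD line. It had 88.8 ± 14.1 CPM in HFD daughters of day 50, against 165 ± 20.2 CPM in CD daughters (-1.01; edgeR, adjusted p = 0.00246), and it was the 1 gene called of the 11 tested in the molybdenum cofactor and urate list. The cofactor genes mal and cin, which xanthine dehydrogenase needs to be active, were lower in sons than in daughters in the comparisons given next, where ry was higher. They were picked from the list by smallest adjusted p, and its other genes are not described between the sexes. Of all genes, 34.9% were called lower in sons in the HFD line at day 50 and 34.3% in the HSD line. mal had 23.5 ± 4.81 CPM in HFD sons of day 50, against 68.8 ± 11.6 CPM in HFD daughters (-1.61; edgeR, adjusted p = 1.37e-07), and cin had 28.9 ± 5.16 CPM in HSD sons, against 118 ± 16.3 CPM in HSD daughters (-2.08; edgeR, adjusted p = 4.29e-15).

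The levels of the 7 genes were also compared over the 18 progeny groups, with the mean log2 CPM of each group centred within its sex. The groups share body composition and depth with all other genes of their libraries, so these correlations describe likeness only. Among the members, Gart and Paics were most alike (r = 0.96) and Prat and ry least (r = -0.62). The 3 genes most like Prat, of 12424, were Nopp140, HmgD and Tes (r = 0.99 each), and those most like Gart were CG11089 (0.97), Paics (0.96) and the ribosomal protein gene RpLP0 (0.95). Pfas was most like Hsc70-4 (0.96), Shmt and Ahcy (0.95 each), and Paics most like CG18547, cathD and Mal-B2 (0.97 each). ry was most like Cyp4d2, CG8249 and ZnT41F (0.96 each). Prat2 was most like CG44141 and CG44140, which have identical counts in 102 of 102 libraries, and Tep4 (0.95, 0.95 and 0.94), and Uro most like DptA, CG45045 and DptB (0.91, 0.90 and 0.90), 2 of which code for antimicrobial diptericins.

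Some members share ground with other genes, and no source used here says whether the counting used strand. The exons of Prat overlap Taf7 on the opposite strand by 124 bases, those of Pfas overlap CG31643 by 103 and those of Gart overlap CG43322, and Pcp lies within Gart on the opposite strand with 0 shared exonic bases. Taf7 had at most 53.2 CPM in daughters and 45.6 CPM in sons, and its median was 16.2 CPM in sons, where that of Prat was 10.8 CPM. The part of reads from overlapping genes in these levels was not tested.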

How the data were processed

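Whole-fly RNA was sequenced in 15 libraries of mothers and 87 of progeny. The values deposited by the authors are raw read counts of genes, with mothers and progeny in separate tables. The submitters' processing notes name kallisto, R 4.2.0, DESeq2 1.36.0 and build BDGP6, without their roles. Library groups are those of the labels. All value columns were used (0 left out).

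Members and gene lists were chosen with earlier results of these data known. Symbols and coordinates are Ensembl's for BDGP6.54, and 10 of 14312 identifiers had no symbol. The function filterByExpr dropped genes short of 10 counts in enough libraries or of 15 in all. Each comparison was fitted with edgeR 4.0.16 in R 4.3.3 (TMM scaling, robust quasi-likelihood test, Benjamini-Hochberg adjustment over all genes tested, called under 0.05); the scripts were checked on simulated counts. CPM were scaled by TMM over all 102 libraries, and log2 CPM used a prior count of 1. No values were pooled across libraries.

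Alternatives were DESeq2 1.42.0, median-of-ratios scaling, no filter, all progeny in 1 fit, and each library left out. Leaving out the 5 libraries with over 10 CPM of osk (labelled male) or of Acp36DE (labelled female) was added after seeing the data. From the related lists, up to 4 genes per list and family of comparisons with the smallest adjusted p could be named. The genes most like a member were the 3 with the highest Pearson r over the 18 progeny groups, among 12424 genes.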

Additional observations from a re-analysis of the deposited data

Results flagged for a closer look

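In 17 of 140 groups of 4 to 10 libraries tested, for the 7 genes together, the highest or lowest library stood far from the nearest other (Dixon's criterion at 95%). Chance gives about 1 in 20, and the 7 genes of 1 library are not independent.

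Library m8, labelled as an HFD son of day 0, was apart in 3 genes: Prat at 117 CPM against 7.36 to 8.48 CPM in the other 4, Gart at 157 CPM against 50.9 to 80.9 CPM, and ry at 13.1 CPM against 39.2 to 47.0 CPM. Beside these values stand its 1285 CPM of osk and a testis mean of -2.61 log2 CPM, against 6.15 to 6.25 in the others.

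Library m27, an HSD son of day 10, was the highest in 4 genes: Gart at 221 CPM, Pfas at 199 CPM, Paics at 647 CPM and Uro at 91.1 CPM. The others reached 90.4, 96.9, 310 and 36.3 CPM in these genes. Library m31, a CD son of day 50, was the highest in Gart at 1060 CPM and Pfas at 1063 CPM, against 158 to 350 and 186 to 333 CPM. Both had the lowest testis mean of their group, at 2.63 and 1.88 log2 CPM. For m31 this was close to the 1.99 of m35, which had the lowest Gart and Pfas of the group, and whether this bears on the members was not tested.

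Among daughters, f29 of the HSD line at day 10 was the lowest in Prat at 82.6 CPM and the highest in Prat2 at 68.4 CPM, f22 of the HFD line at day 10 the lowest in Prat at 21.6 CPM, f40 of the HFD line at day 50 the lowest in Gart at 94.5 CPM, and f43 of the HSD line at day 50 the highest in Uro at 57.9 CPM. In f29 and f22 the ovary mean was also the lowest of the group, at 7.25 and 4.0 log2 CPM. The remaining libraries were m35 (CD son of day 50), the lowest in Prat at 15.8 CPM, m10 (HFD son of day 0), the highest in Uro at 65.5 CPM, and the CD mother s1, the highest in ry at 43.8 CPM.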

How the results depend on the processing

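Counts below are member values called, including those of Paics and of HFD against CD in day 10 daughters that the report gives without a test. With 1 library left out, maternal diet in day 10 daughters gave 5 to 10 calls (6 with all libraries; 10 without f29) and in day 50 daughters 1 to 6 (3 with all; f32, f38 and f40 moved it). Maternal diet in day 50 sons gave 0 to 1 (1 without m45), day in sons 9 to 18 (10 with all; 18 without m45), sex at day 0 3 to 7 (4 with all; 7 without m8), and the sex difference of the diet effect 0 to 1 (1 without f29, f36 or m45). Day in sons moved without m27 too, with 5 calls in HSD sons for day 50 over day 10, against 0 with all libraries. One fit of all progeny gave 3 calls by diet in day 10 daughters, 0 in day 50 daughters, 1 in day 0 sons, 1 in day 50 sons, 18 by day in sons and 7 by sex at day 0. DESeq2 gave 1 call by diet in day 50 sons and 1 in the sex difference of the diet effect, where edgeR gave 0. Without the 5 libraries holding transcripts of the other sex, sex at day 0 gave 8 calls. No called value changed sign under any alternative run. Of the 64 called values, DESeq2 lost 2, median-of-ratios scaling 2 and the fit of all progeny 17, and 59 of 1404 refits with 1 library left out lost a call. The cause of these changes was not tested. No paired analysis was possible because each library number occurs once and pairs no samples across groups. Median-of-ratios scaling moved the median of all genes by 0.10 to 0.18 on the log2 scale between the sexes at days 10 and 50, and the changes there are relative to that. Prat counts of 59 to 284 in the sons other than m8 limit its precision there, and intervals cover the spread between libraries only.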
